A study of Homo sapiens with 12 samples.

Results

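Processed pseudogenes were examined among the genes listed for human breast cells that were squeezed through capillary-sized channels. The members are the genes that the 3 deposited tables annotate as processed pseudogenes and whose names do not start with RPL, RPS or KRT, prefixes that name copies of ribosomal protein and keratin genes. They number 157 of the 2680 genes listed for MCF-10A (5.86%), 54 of 381 for MDA-MB-231 (14.2%) and 10 of 97 for LM2 (10.3%), which makes 213 distinct genes of 3090. MCF-10A is a non-tumorigenic line of breast epithelium. MDA-MB-231 came from a triple-negative breast cancer, and the LM2 line was selected from it for growth in the lung. Cells of the constriction groups transited channels 5 µm wide, 5 µm high and 150 µm long under hydrostatic pressure and were collected upon transit, whereas control cells did not transit. Each group had 2 libraries of poly(A)-selected RNA, and no drug, knockdown or other treatment separated the groups.

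A processed pseudogene arises when a messenger RNA is copied back into DNA by the LINE-1 reverse transcriptase and inserted elsewhere in the genome. The copy lacks the introns and usually the promoter of its parent, so most copies are silent, and those that are transcribed often use the promoter of a neighbouring or surrounding gene. Abundant messenger RNAs of the germ line, such as those of ribosomal proteins, translation factors, cytoskeletal proteins and chaperones, have left the largest families of copies. A copy can remain so similar to its parent that a short sequencing read cannot be placed on one of them alone.

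All 213 members were found at the same GRCh38 position and with the same type in the GENCODE annotation, and 186 of them had a single exon block, the structure of an intronless copy. Their gene lengths ran from 123 to 6232 bases with a median of 786. A protein-coding transcript that matched was found for 210 members, with a median identity of 92.3% over the aligned bases and a range from 64.7% to 100%. Identity was at least 95% for 77 members and at least 99% for 18. Of the 197 members whose name or description gives a parent, 179 had that same symbol as the closest coding gene. In the annotation, 56 members overlapped another gene on the same strand, 88 overlapped a gene on the opposite strand and 76 overlapped none. Exons overlapped those of another gene for 19. Whether the libraries kept the strand of the RNA is not given in the sources used here, so reads of an overlapping gene cannot be told apart from those of the member.

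The name rule did not remove every ribosomal protein copy. The descriptions call 27 of the 213 members ribosomal protein pseudogenes, 19 of those listed for MCF-10A, 9 for MDA-MB-231 and 2 for LM2. Nearly all of these carry clone-based names such as AL355032.1, and they are kept below and counted as a group of their own.

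Sequences of 6 members are shown because the results turn on copies that differ from their parents by a few bases and on copies that differ by many. Each is written 5′ to 3′ on the strand of the pseudogene, in lower case, with the bases that differ from the closest protein-coding transcript in capitals. The letters are those of the GENCODE transcripts of GRCh38. TMSB4XP8 and AC005912.1 were high in MDA-MB-231 and differ from thymosin beta 4 (TMSB4X) and ribosomal protein S27 (RPS27) by 1 base each.
TMSB4XP8 (chr4:90838903-90839037, minus strand): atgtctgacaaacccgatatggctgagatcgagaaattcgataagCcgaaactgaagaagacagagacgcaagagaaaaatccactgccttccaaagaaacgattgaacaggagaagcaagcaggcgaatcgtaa
AC005912.1 (chr12:3211663-3211917, minus strand): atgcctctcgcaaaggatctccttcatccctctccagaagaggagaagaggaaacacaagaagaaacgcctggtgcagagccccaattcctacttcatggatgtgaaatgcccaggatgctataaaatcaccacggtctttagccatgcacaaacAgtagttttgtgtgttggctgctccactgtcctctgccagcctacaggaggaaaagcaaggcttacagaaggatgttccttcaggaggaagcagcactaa
AL355032.1 was listed in all 3 tables, and AC078817.1 is the member whose named parent, RPL26, was listed in the same table. Against RPL26 they carry 12 and 15 substitutions over their whole length, 8 and 11 of them in the stretch shown, and they share 3 (T177A, C357T and C417A, with the base of RPL26 first and positions counted from the 5′ end of the pseudogene).
AL355032.1, bases 170 to 430 (chr14:101678112-101678372, plus strand): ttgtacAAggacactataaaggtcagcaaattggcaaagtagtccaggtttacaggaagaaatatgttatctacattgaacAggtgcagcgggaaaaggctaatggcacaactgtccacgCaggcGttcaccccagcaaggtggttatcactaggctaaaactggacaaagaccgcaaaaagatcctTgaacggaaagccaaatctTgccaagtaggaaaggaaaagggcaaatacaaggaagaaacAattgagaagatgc
AC078817.1, bases 170 to 430 (chr12:80102904-80103164, minus strand): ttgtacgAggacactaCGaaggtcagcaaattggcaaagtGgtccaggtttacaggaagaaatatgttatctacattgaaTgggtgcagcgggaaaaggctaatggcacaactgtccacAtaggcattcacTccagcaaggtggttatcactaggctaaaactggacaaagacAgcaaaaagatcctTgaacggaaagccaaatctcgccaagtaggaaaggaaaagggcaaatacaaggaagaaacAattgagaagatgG
RAC1P2 had the highest FPKM of the MCF-10A members in any single library and differs from the small GTPase gene RAC1 by 4 substitutions (G17T, A373C, T469C and C493A), of which 3 lie in the stretch shown. PFN1P6, a member without a read after transit in MCF-10A, carries 53 substitutions against profilin 1 (PFN1), of which 16 lie in the 120 bases shown.
RAC1P2, bases 360 to 510 (chr4:46723899-46724049, minus strand): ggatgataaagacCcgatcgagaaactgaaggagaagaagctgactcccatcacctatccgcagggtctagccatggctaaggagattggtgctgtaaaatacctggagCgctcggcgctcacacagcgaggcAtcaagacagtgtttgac
PFN1P6, first 120 bases (chr1:144442606-144442725, plus strand): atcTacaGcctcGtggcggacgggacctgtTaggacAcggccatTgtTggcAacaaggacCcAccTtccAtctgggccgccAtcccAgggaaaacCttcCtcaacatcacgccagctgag

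The libraries held 29978695 to 53584754 reads in total. The tables list only genes that passed the authors' own test between the same libraries at an unadjusted p-value under 0.05, so every member had been chosen for a difference, and the calls, directions and fold changes below describe the members and are not independent evidence of a change. Marker genes could not be used to check the cell lines, since 0 of 8 epithelial and 0 of 5 mesenchymal markers were listed in any of the 3 tables. A gene was called when edgeR's quasi-likelihood test gave a Benjamini-Hochberg adjusted p-value under 0.05. In bulk RNA, fewer cells with a transcript and less of it per cell cannot be told apart.

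In MCF-10A, most processed pseudogenes were lower after transit, and most of those had no read left. The mean was lower after transit for 127 of 157 members (80.9%), against 94.5% of all 2680 listed genes, and higher for 30. In both constriction libraries 0 reads were counted for 103 members (65.6%), against 89.6% of the listed genes. A count of 0 allows up to 3 reads per library, or a normalised count of 3.11 to 3.62 in these 2 libraries. The controls of these 103 members had mean normalised counts from 6.98 to 109 with a median of 13.5. Among the members whose normalised counts averaged 10 or more over the 4 libraries, 35 were lower, 22 of them with 0 reads after transit, and 30 were higher. Of these lower and higher members together 26 were called, where 74.0% of all listed genes with such counts were.

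The test called 115 of the 157 members (73.2%), where percent called over the whole table was 91.5%. Of these, 113 were lower (91.3% of the table was called lower) and 2 were higher (0.149% of the table). With the replicate number as a block, 107 members were called, where the table gave 74.2%. The 2 groups of libraries did not overlap for 140 members (89.2%), where the table gave 96.8%. Of the 19 members described as ribosomal 14 were called (73.7%), and of the other 138 members 101 were called (73.2%). Leaving out 1 library leaves 1 residual degree of freedom, with the lone library of its group assumed to vary like those of the other group. Between 127 and 139 members were then lower and 103 to 116 had 0 reads after transit. EdgeR called 0 members without constriction replicate 1, where 119 had an unadjusted p under 0.05, and 0 without control replicate 2, where 80 did. It called 14 without constriction replicate 2 and 31 without control replicate 1. In the same 4 fits 0.0%, 0.149%, 2.57% and 20.8% of all listed genes were called. On all 4 libraries 138 members had an unadjusted edgeR p under 0.05, as 95.9% of all listed genes did. DESeq2 called 125 members, where 93.0% of all listed genes were called, and limma 78, where 60.1% were.

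**Figure D1:**
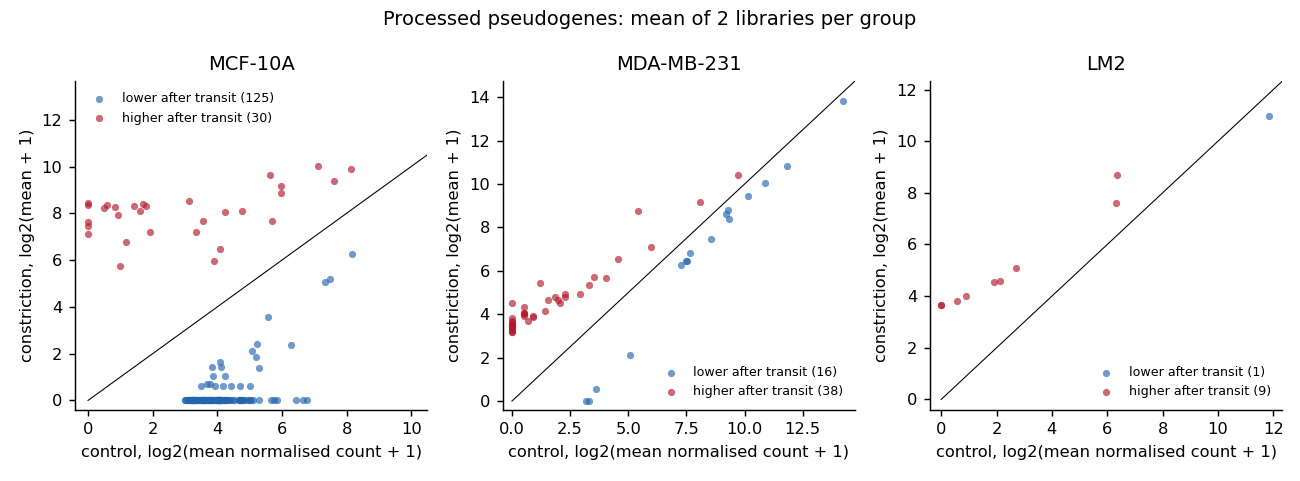
Each point is a processed pseudogene at the log2 of its mean normalised count plus 1 in the control (x axis) and constriction (y axis) libraries, 2 libraries per mean, with the line of equality. In MCF-10A a row of members lies at 0 after transit and the 30 higher members lie above the line, and in MDA-MB-231 the 16 lower members include the most abundant ones. The 2 members on the Y chromosome are not drawn.

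The 10 members with 0 reads in both constriction libraries and the highest control means were copies of genes of unrelated function. AC021106.1, described as a copy of the RNA-binding protein gene SYNCRIP, fell at least 32.5-fold from 150 and 91 reads in the controls (adjusted p = 0.0258, edgeR). IMPDH1P5, a copy of the gene of the guanine nucleotide enzyme IMPDH1, fell at least 29.6-fold from 53 and 186 control reads (adjusted p = 0.0206, edgeR). AC006978.1, a copy of the proteasome ATPase gene PSMC5, fell at least 25.2-fold from 83 and 112 (adjusted p = 0.0117, edgeR). All 3 were at 0 reads in both constriction libraries, so the groups did not overlap. With the replicate block the edgeR adjusted p-values of these 3 were 0.925, 0.872 and 0.685, and over all settings run they ranged from 0.000674 to 1.0, from 0.000702 to 1.0 and from 0.000626 to 0.794.

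The next members of that group had 22 to 92 reads in each control library. PFN1P6, the copy of the actin-monomer binding protein gene shown above, fell at least 16.9-fold from 46 and 87 reads. AL663070.1, a copy of the ribosomal protein gene RPS2, fell at least 15.8-fold from 73 and 44. SNX18P7, a copy of the endosomal sorting nexin gene SNX18, fell at least 14.7-fold from 27 and 92. The bounds for PRKXP1, GEMIN8P4, RAB11FIP1P1 and CPSF1P1, copies of a protein kinase gene, an SMN complex gene, a vesicle recycling gene and an mRNA 3′ end processing gene, were 11.2, 9.91, 9.43 and 9.03. These 7 members had an edgeR adjusted p of 0.00469 each. With the replicate block GEMIN8P4, RAB11FIP1P1 and CPSF1P1 stayed under 0.05 (0.03, 0.0281 and 0.0222), whereas PFN1P6, AL663070.1, SNX18P7 and PRKXP1 did not (0.165, 0.145, 0.138 and 0.0551).

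Classes of parent genes were set by the first letters of the parent symbol. MSNP1, a moesin copy that was higher, and TBCAP1, a tubulin cofactor copy that was lower, thus fell outside the cytoskeletal class. All 9 members of that class in MCF-10A were lower and called, and 7 had 0 reads in both constriction libraries. Of all listed MCF-10A genes, 94.5% were lower, 91.5% were called and 89.6% had 0 reads after transit, and the counts of the cytoskeletal copies are near these shares. The 9 included 4 copies of PFN1, which were looked up after their values were seen. PFN1P3 had 0, 0, 16 and 48 reads in constriction replicates 1 and 2 and control replicates 1 and 2. In the same order PFN1P4 had 0, 1, 19 and 28 reads and PFN1P8 had 0, 0, 6 and 28. Each of the 4 thus had at most 1 read in a library after transit, and their identity to PFN1 was 86.7% to 88.3%.

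The other classes are given as counts, to be read against the same shares of the whole table. Among copies of RNA-binding and splicing genes, 6 of 7 were lower, 5 with 0 reads after transit, and 5 were called. Among ubiquitin and proteasome copies, 6 of 9 were lower and 5 were called. Among signalling and GTPase copies, 5 of 8 were lower and 5 were called. The 4 translation factor copies were all lower with 2 called, and both metabolic copies and the respiratory chain copy UQCRBP1 (10 and 12 control reads, 0 after transit) were lower and called. Chaperone and folding copies were lower for 3 of 5, with 2 called, and chromatin copies for 1 of 3, with that 1 called lower and 1 called higher. The 90 members outside these classes were lower in 73 cases, of which 67 were called.

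Reads remained after transit for 24 lower members, of which 10 were called, where 36.6% of all such listed genes were. The most abundant was AC004453.1, a copy of the ribosomal protein gene RPL32 with 98.3% identity, at normalised counts of 60.3 and 91.1 after transit and 402 and 175 in the controls. It was 3.82-fold lower with a log2 difference of -1.92 ± 0.64 (SE, n = 2 per group), and edgeR's adjusted p was 1.0. EIF4BP3, a copy of the translation initiation factor gene EIF4B, had 30.1 and 41.4 against 257 and 97.9, 4.97-fold lower (edgeR adjusted p = 1.0). AC144530.1, a copy of RPL17, had 16.9 and 48.6 against 193 and 126, 4.87-fold lower (edgeR adjusted p = 1.0). In all 3 the groups did not overlap, but the difference did not pass the test.

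The 5 other named members of this kind had fewer reads left. AC122718.1, a FAM133B copy, had 0 and 8 reads in the constriction libraries against 108 and 62 (18.7-fold lower, edgeR adjusted p = 0.275). RBMXP2, a copy of the splicing regulator gene RBMX, had 0 and 5 against 44 and 35 (13.7-fold lower, edgeR adjusted p = 0.101). TBCAP1, a copy of the tubulin folding cofactor gene TBCA, had 2 and 6 against 31 and 54 (8.47-fold lower, edgeR adjusted p = 0.185). In these 3 the groups did not overlap, and the adjusted threshold was not passed with edgeR but was with DESeq2 (adjusted p = 0.0461, 0.0261 and 0.0212). PPIAP11, a copy of the cyclophilin A gene PPIA, had 7 and 13 reads against 55 and 49 (4.23-fold lower, edgeR adjusted p = 0.839). AL358942.1, a copy of the proliferation-associated gene PA2G4, had 1 and 2 reads against 31 and 58, a ratio of 23.3 with a 95% counting interval of 7.71 to 115 (edgeR adjusted p = 0.03, and 0.416 with the replicate block).

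The 30 higher members were carried mainly by constriction replicate 1. Each of the 30 had a higher normalised count in constriction replicate 1 than in replicate 2. Their summed normalised counts were 17795 and 2234 in constriction replicates 1 and 2 and 926 and 983 in the controls. In replicate 2, 11 of the 30 had 0 reads, and 17 were not above both controls. Without replicate 1, 12 of the 30 were lower than the controls, 5 had no read at all and 13 remained higher. No such gap was seen between the 2 libraries for the lower members, whose sums after transit were 133 and 240 against 3193 and 2877 in the controls.

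**Figure D2:**
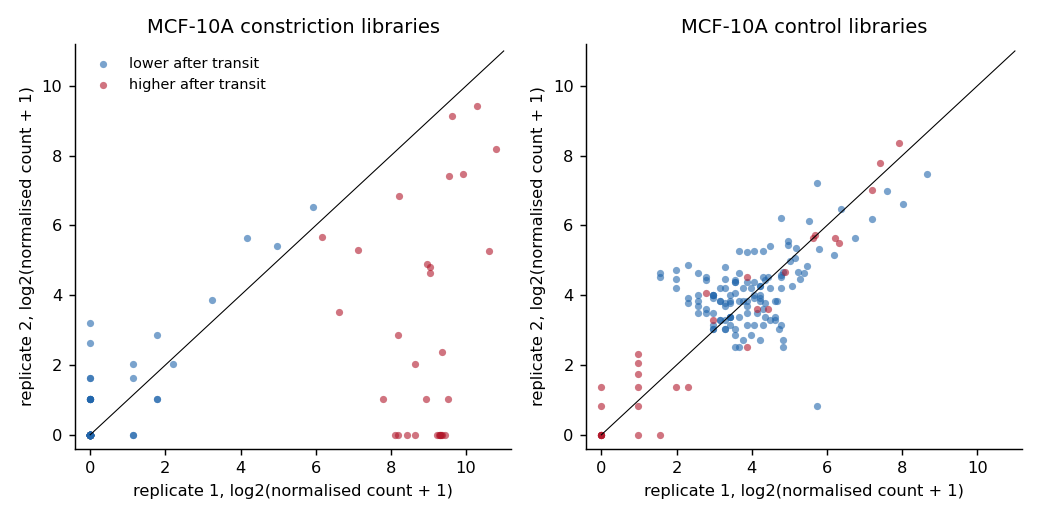
Each point is a processed pseudogene in MCF-10A at the log2 of its normalised count plus 1 in replicate 1 (x axis) and replicate 2 (y axis), for the constriction libraries on the left and the control libraries on the right, with the line of equality. All 30 members higher after transit (red) lie to the right of the line in the constriction panel, 11 of them at 0 in replicate 2, while in the control panel both colours scatter around the line. The 2 members on the Y chromosome are not drawn.

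For 5 of the higher members, constriction replicate 1 held every read counted in the 4 libraries. WBP1LP1, a copy of WBP1L, had 579, 0, 0 and 0 reads in constriction replicates 1 and 2 and control replicates 1 and 2. AL035404.1, whose closest coding gene was CCDC25, had 538, 0, 0 and 0 reads, and HMGB3P7, a copy of the high mobility group box gene HMGB3, had 330, 0, 0 and 0. AP002001.2, a copy of the translation termination factor gene GSPT1, had 287, 0, 0 and 0, and AL132838.2, described as a copy of RPL36AL and 86.0% identical to the ribosomal protein gene RPL36A, had 230, 0, 0 and 0. In each, 1 constriction library stood apart and the other was at the level of both controls. Of these 5, WBP1LP1 was called (adjusted p = 0.0492, edgeR, and 1.0 with the replicate block), with a mean at least 131.5-fold above the controls that rests on that library. The edgeR adjusted p of the others lay between 0.0519 and 0.065, whereas DESeq2 gave 4.29e-07 for AL035404.1, 4.46e-07 for HMGB3P7, 3.07e-07 for AP002001.2 and 0.0354 for AL132838.2. Limma gave 1.0 for all 5. HMGA1P3, a copy of the chromatin architectural gene HMGA1, was the other called member, with 80, 10, 2 and 0 reads, a ratio of 57.3 with a 95% counting interval of 15.4 to 481 (edgeR adjusted p = 0.0194, and 0.455 with the replicate block).

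A further 12 members rested on the same library, with constriction replicate 2 not above both controls. RAC1P2, a copy of the gene of a GTPase that drives membrane ruffling, had normalised counts of 1563 and 37.3 after transit and 48.9 and 49.0 in the controls. ARMC10P1 and NUS1P1, with 99.3% and 99.5% identity to their parents, had 734 and 522 in replicate 1 but 1.04 and 23.8 in replicate 2, and their controls lay between 6.85 and 28.4. AC004898.1, a copy of UBXN2B, a gene of Golgi and endoplasmic reticulum maintenance, had 628 and 0 against 0.979 and 3.95. The other 8, copies of GNA11, PET100, FAM91A1, DNAJC8, HSP90B1, ABCE1, CDC20 and TERF1, had 181 to 544 reads in replicate 1 and 0 to 6 in replicate 2. For the 12, edgeR's adjusted p lay between 0.11 and 1.0, so edgeR called none, and leaving out replicate 1 turned the direction of each. DESeq2 gave an adjusted p of 0.0402 for AC008267.1, 0.0394 for AC068631.3 and 0.0303 for TERF1P2, copies of GNA11, PET100 and TERF1, and over 0.05 for the other 9.

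In 13 members both constriction libraries lay above both controls. HNRNPCP2, a copy of the pre-mRNA binding protein gene HNRNPC with 98.8% identity, had normalised counts of 1240 and 681 after transit and 240 and 325 in the controls (3.4-fold, log2 difference 1.76 ± 0.47, SE, n = 2 per group). GPX1P1, a copy of the glutathione peroxidase gene GPX1 that detoxifies hydrogen peroxide, had 783 and 567 against 168 and 219 (3.48-fold, log2 difference 1.79 ± 0.30). MSNP1, a copy of moesin, which links actin to the plasma membrane, had 71.1 and 49.7 against 16.6 and 11.1 (4.36-fold, log2 difference 2.05 ± 0.37). In these 3 the constriction libraries differed from each other by less than 2-fold. Their edgeR adjusted p was 1.0 each.

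The spread between the constriction libraries was larger in the rest. TCEA1P2, a copy of the transcription elongation factor gene TCEA1 with 99.7% identity, had 1761 and 290 against 147 and 129. Z97180.1, whose closest coding gene was ANKRD11, had 750 and 171 against 73.4 and 49.0. The ubiquitin pathway copies AC002524.1 (UBE2E3) and AC005000.1 (SUMO2) had 295 and 115 against 49.9 and 52.1, and 140 and 38.3 against 20.6 and 11.1. Replicate 1 was well above replicate 2 in all 4, though replicate 2 also exceeded both controls. RTN3P1, AL162615.1, WDR82P1 and BMPR1AP2 had 407 to 547 reads in replicate 1 and 1 to 28 in replicate 2, with 1 to 28 in the controls. These 4 also rested on replicate 1, which was over 10 times replicate 2. In BMPR1AP2, with 407, 1, 1 and 1 reads, and WDR82P1, with 547, 4, 3 and 2, replicate 2 was at most 2 reads above a control. The edgeR adjusted p of these 8 lay between 0.141 and 1.0, whereas DESeq2 gave 0.00758 for AL162615.1, 0.0164 for WDR82P1 and 0.0182 for BMPR1AP2.

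In MDA-MB-231, the balance of directions was the opposite. The mean was higher after transit for 38 of 54 members and lower for 16 (29.6%), against 33.3% of all 381 listed genes. None of the 54 was called by edgeR, where 0.262% of the table was called, although 52 had an unadjusted p under 0.05, as 94.0% of all listed genes did. DESeq2 called 2, where 2.36% of all listed genes were called, and limma 0, where 0.0% were. With TMM factors edgeR called 6 members, where 3.94% of all listed genes were called, and with the minimum count 1, where 0.772% were. Without control replicate 1 and without control replicate 2 it called 1 each, where 1.84% and 2.1% were. With the replicate block edgeR called 10 of 54, where the table gave 22.6%. The groups did not overlap for 49 of 54 (90.7%), where the table gave 94.5%.

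The lower members included the most abundant ones. Their mean normalised counts in the controls had a median of 289, against 0.747 for the higher members, and 13 of the 38 higher members had 0 reads in both controls. The split by direction used these same control values, and a gene near 0 in the controls can hardly be lower. The gap thus only describes the members. The summed normalised counts of the 16 lower members were 21761 and 18067 after transit and 31017 and 27190 in the controls. For the higher members the sums were 3458 and 3002 against 1365 and 1272.

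TMSB4XP8, a copy of the gene of the actin-sequestering peptide thymosin beta 4, had normalised counts of 1800 and 1792 after transit and 4088 and 3131 in the controls. Both constriction libraries lay below both controls, 2.01-fold on average (log2 difference -1.01 ± 0.19, SE, n = 2 per group). Its FPKM of 288 to 641 was the highest of the MDA-MB-231 members. EdgeR's adjusted p was 1.0, that of DESeq2 was 0.017, and that of edgeR with the replicate block was 2.18e-13.

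Copies of EEF1A1, the elongation factor that brings aminoacyl-tRNA to the ribosome, made up all 4 translation factor members in MDA-MB-231. EEF1A1P5, EEF1A1P6 and EEF1A1P11 were lower, whereas AC010240.2, described as an EEF1A1 copy and 83.4% identical, was higher with 9 and 21 reads against 0 and 1. EEF1A1P5 (chr9:133019486-133020874), 99.7% identical to its parent, had 16293 and 13026 after transit and 20449.0 and 18449 in the controls. That is 1.33-fold lower with no overlap (edgeR adjusted p = 1.0, and 0.000228 with the replicate block). EEF1A1P6 (chr7:22510616-22511999), 99.4% identical, had 1156 and 954 against 1950.0 and 1855. It was 1.8-fold lower (edgeR adjusted p = 1.0, and 2.07e-07 with the replicate block). In LM2 the same EEF1A1P6 had 1815 and 2191 against 4350 and 2927, also without overlap and 1.82-fold lower (log2 difference -0.86 ± 0.31). The edgeR adjusted p in LM2 was 1.0 with or without the block. LM2 was derived from MDA-MB-231, but the 2 comparisons share no library.

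Copies of a chaperone, a glycolytic and a ribosomal protein gene were lower too. HSP90AA2P, a copy of the stress-inducible chaperone gene HSP90AA1, had 181 and 166 against 452 and 309 (2.19-fold lower). AC012085.1, a copy of the glycolytic gene PGAM1 with 99.9% identity, had 400 and 276 against 693 and 579 (1.88-fold lower). AC073861.1, a copy of the ribosomal protein gene RPS18, had 784 and 597 against 1342 and 921 (1.64-fold lower). In each, both constriction libraries were below both controls. These 3 had an edgeR adjusted p of 1.0, and of 0.00378, 0.000703 and 0.00136 with the replicate block.

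H3F3AP4 (chr2:174719908-174720318) is identical to the coding sequence of H3F3A, a gene of the replacement histone H3.3, over all of its 411 bases. It had normalised counts of 353 and 438 in the constriction libraries and 586.1 and 585.7 in the controls, 1.48-fold lower. PPIAP22, a PPIA copy with 99.6% identity, had 419 and 461 against 605 and 663, 1.44-fold lower. Neither overlapped between groups and neither passed the test (edgeR adjusted p = 1.0 for both, and 0.344 and 0.436 with the replicate block).

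Higher members with many reads were copies of ribosomal protein genes that the name rule had left in. AC005912.1, with its 1 substitution against RPS27 (G156A), had 1477 and 1225 after transit and 922 and 782 in the controls, 1.59-fold higher. AL139100.1, a copy of RPS10, had 154 and 115 against 57.1 and 65.4, 2.2-fold higher. The groups overlapped in neither. The edgeR adjusted p of both was 1.0, and with the replicate block it was 0.00153 and 1.0.

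The next 4 higher members of MDA-MB-231 had lower mean normalised counts after transit than these ribosomal protein copies. ACTBP2, a beta-actin copy, had 81, 26, 6 and 16 reads in constriction replicates 1 and 2 and control replicates 1 and 2. AC091868.1, a copy of the ATP synthase gene ATP5PF, had 31, 53, 4 and 15 reads in that order. PRDX2P3, a copy of the peroxide-removing enzyme gene PRDX2, had 18, 11, 0 and 2. In these 3 the constriction libraries were above both controls. RBMS2P1, by contrast, had 6, 195, 25 and 16 reads, so its higher mean rested on constriction replicate 2, without which it was lower than the controls. The edgeR adjusted p was 1.0 for all 4.

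AL355032.1 (ENSG00000241494) was the only member listed in all 3 tables, and it was higher after transit in each. This 438-base copy, described as an RPL26L1 pseudogene and 97.3% identical to RPL26, lies opposite the non-coding gene LINC02320 without overlapping its exons. In MDA-MB-231 it had normalised counts of 474 and 381 after transit and 33.0 and 51.6 in the controls, 10.1-fold higher (log2 difference 3.31 ± 0.35, SE, n = 2 per group). In MCF-10A it had 972 and 178 against 78.3 and 44.2, 9.38-fold higher (log2 difference 3.21 ± 1.07). In LM2 it had 614 and 211 against 82.8 and 76.7, 5.17-fold higher (log2 difference 2.36 ± 0.71). The constriction libraries lay above the controls in every line, with the smallest spread in MDA-MB-231. EdgeR's adjusted p was 0.101 in MDA-MB-231 and 1.0 in MCF-10A and LM2. In MDA-MB-231 the replicate block gave 7.88e-22 and DESeq2 1.15e-11, and over all settings run the adjusted p reached 1.0.

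RPL26, a component of the large ribosomal subunit and the coding gene closest to AL355032.1, was itself listed in MDA-MB-231 and LM2, and it lay on the other side of the controls. RPL26 had normalised counts of 954 and 661 after transit and 2057 and 1437 in the controls in MDA-MB-231 (log2 difference -1.11 ± 0.37). In LM2 it had 680 and 1067 against 1647 and 2352 (log2 difference -1.19 ± 0.41). Both constriction libraries were below both controls in each line, and edgeR's adjusted p was 1.0 in both. AC078817.1, the other RPL26 copy in the MDA-MB-231 table, had 49 and 41 reads in the constriction libraries against 0 and 3, a ratio of 27.8 with a 95% counting interval of 9.21 to 137 (edgeR adjusted p = 1.0, and 0.00444 with the replicate block). So in MDA-MB-231 both copies were higher in the libraries in which the coding gene was lower. How the counting treated reads with several best positions is not given in the sources used here, and the part of shared reads in these values was not tested.

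**Figure D3:**
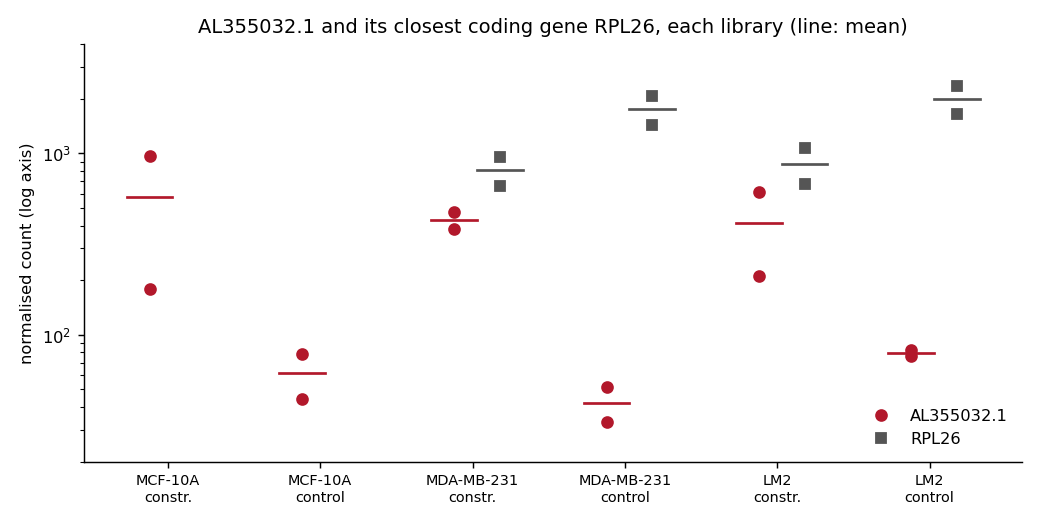
Normalised counts (log axis) of the processed pseudogene AL355032.1 (red circles) and of its closest coding gene RPL26 (grey squares) in each library, by cell line and group, with a line at the mean of the 2 libraries. AL355032.1 is above the controls after transit in all 3 lines, from 44.2 and 78.3 to 178 and 972 in MCF-10A, and RPL26 is below them in MDA-MB-231 and LM2, where it was listed.

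With the replicate block, the 10 members called in MDA-MB-231 included AL355032.1, AC078817.1 and AC005912.1, which were higher, and TMSB4XP8, EEF1A1P5, EEF1A1P6, HSP90AA2P, AC012085.1 and AC073861.1, which were lower. These 3 higher ones are ribosomal protein copies by description. For each of these 9, the blocked fit gave the lowest adjusted p of the settings run and the highest was 1.0.

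In LM2, 9 of the 10 members were higher after transit and 1 was lower (10.0%), against 46.4% of all 97 listed genes. None was called by edgeR, where 0.0% of the table was called. An unadjusted p under 0.05 was reached by 2 of the 10, where 41.2% of all listed genes reached it. Neither DESeq2 nor limma called any, where each called 0.0% of all listed genes. The groups did not overlap for 9 of 10, where the table gave 82.5%. With the replicate block 2 of the 10 were called, where the table gave 28.9%.

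RALGAPA1P1, the longest member at 6232 bases and a copy of a Ral GTPase-activating protein gene, had normalised counts of 248 and 137 after transit and 67.9 and 90.8 in the controls, 2.43-fold higher (log2 difference 1.27 ± 0.46). TYRO3P, a copy of the receptor tyrosine kinase gene TYRO3, had 44, 16, 8 and 4 reads in constriction replicates 1 and 2 and control replicates 1 and 2, 5.97-fold higher in normalised counts. NRBF2P5, a copy of an autophagy gene, had 12, 32, 4 and 2 reads, 8.01-fold higher. The constriction libraries exceeded both controls in each of these 3, and edgeR's adjusted p was 1.0.

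The last 4 LM2 members had at most 2 reads in any control. AL354751.3 had 23, 4, 2 and 0 reads, a ratio of 15.0 with a 95% counting interval of 3.77 to 130. AP001282.1, a PYROXD1 copy, had 15, 9, 0 and 1, a ratio of 26.7 with an interval of 4.35 to 1097. AL445928.1, for which no coding match was found, had 19, 1, 0 and 0, and EEF1A1P4 had 20, 0, 0 and 0. These last 2 were the members called with the replicate block (edgeR adjusted p = 0.0179 and 0.0255, and 1.0 without it), although nearly all of their reads came from constriction replicate 1. Their means were at least 4.04-fold and 4.08-fold above the controls.

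Besides AL355032.1, 6 members were listed in 2 tables, and for 4 of them the direction was the same. AC004453.1, the RPL32 copy described above for MCF-10A, was lower in MDA-MB-231 too, at 113 and 61.9 against 227 and 144 (log2 difference -1.08 ± 0.53, edgeR adjusted p = 1.0). TYRO3P was higher in MDA-MB-231 as in LM2, at 18 and 17 reads against 2 and 1, a ratio of 10.8 with a 95% counting interval of 3.41 to 54.9. AC004898.1 was higher in MDA-MB-231 in both libraries, with 24 and 33 reads against 2 and 6 (7.01-fold), whereas in MCF-10A it rested on 1 library. EEF1A1P6 was the fourth.

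The direction differed between lines for ACTG1P10 and AL583832.1. ACTG1P10, a copy of the cytoplasmic gamma-actin gene, was without a read after transit in MCF-10A, with 11 and 6 in the controls (at least 2.31-fold lower, edgeR adjusted p = 0.00469). In MDA-MB-231 it had 47 and 59 against 6 and 27 (3.26-fold higher, edgeR adjusted p = 1.0). Its exons overlap those of KANTR on the opposite strand. AL583832.1, a distant copy of the glycogenin gene GYG2 with 66.9% identity, had 0 and 0 against 5 and 19 in MCF-10A (at least 2.96-fold lower, edgeR adjusted p = 0.00469) and 30 and 33 against 5 and 8 in MDA-MB-231 (4.52-fold higher, edgeR adjusted p = 1.0). The groups did not overlap in either line, and the difference between the lines was not tested.

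Identity to the closest coding transcript differed with the read pattern, which is given as a description. It covers the aligned bases only, which for some members under 85% were a small part. They were 2.64% of the length for AC138409.1 and 3.54% for AC138951.1, both higher in MDA-MB-231. For AC073349.2, with 0 reads after transit in MCF-10A, they were 4.3%. In MCF-10A the members with 0 reads after transit had a median identity of 87.8% (64.7% to 98.8%, 101 members with a match). The lower members with reads left had 96.8%, the 13 higher members with both libraries above the controls had 97.3% and the other 17 higher members 95.7%. Of 37 MCF-10A members under 85% identity, 35 had 0 reads in both constriction libraries, against 50 of 63 from 85% to under 95% and 16 of 55 at 95% or more. In MDA-MB-231 the 14 lower members with reads left had a median identity of 98.9%, the 33 higher members with both libraries above the controls 88.9%. All 15 MDA-MB-231 members under 85% were higher, and 8 of them had 0 reads in both controls, whereas 14 of 22 at 95% or more were lower. Among MCF-10A members at 95% or more, 34 were lower and 21 higher. How much of this follows from reads shared with the parents was not tested.

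**Figure D4:**
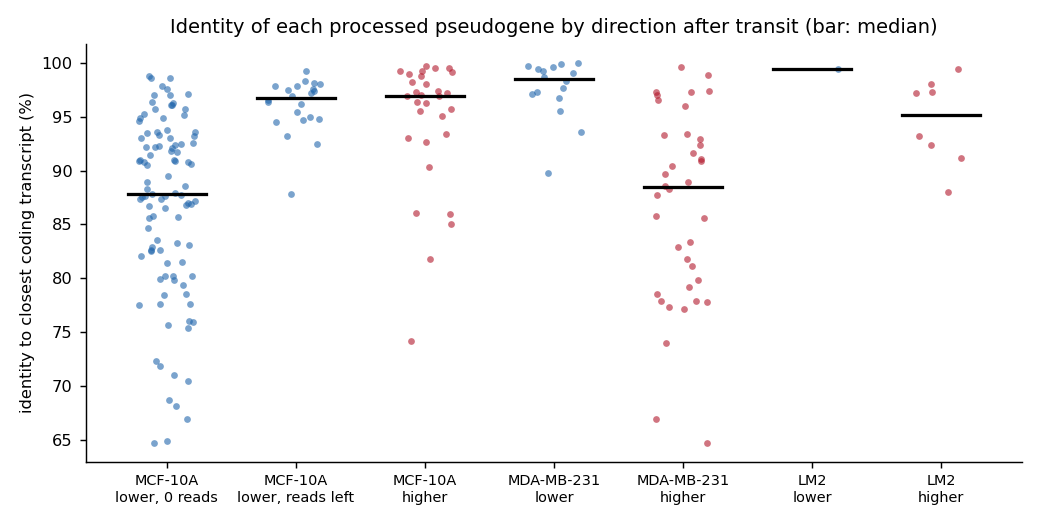
Each point is a processed pseudogene at its percent identity to the closest protein-coding transcript (y axis), grouped by cell line and direction after transit (x axis, points spread sideways at random), with a bar at the median. The MCF-10A members with 0 reads and the higher MDA-MB-231 members reach down to 64.7%, whereas all but 2 of the lower MDA-MB-231 members lie at 95.5% or more. The 2 members on the Y chromosome and the members without a match are not drawn.

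Parents and surrounding genes were rarely listed with the members. A named parent was listed in the same table for 0 members in MCF-10A, for AC078817.1 in MDA-MB-231 and for 0 in LM2. In MCF-10A 6 members overlapped a listed gene, AC009120.1 with a gene on each strand, and all 7 of these genes were without a read after transit. The members AC005326.1, CTAGE7P, AC009120.1 and AC063944.2 also had 0 reads in both constriction libraries, whereas HNRNPCP2 and AL513175.2 were higher. C2orf88, which holds HNRNPCP2 on the same strand, had 12 and 11 reads in the controls, and AL390957.1, opposite to AL513175.2, had 22 and 61. ST3GAL3, a sialyltransferase gene on the strand opposite to SHMT1P1, was higher in MDA-MB-231 with 234 and 227 reads against 98 and 155, as SHMT1P1 was in its mean, with 31 and 1 against 0 and 1. For members without a listed parent, the level of the parent was not analysed here.

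Processed pseudogenes of ribosomal proteins that the name rule removed served for comparison. In MCF-10A 15 of 18 were lower (83.3%), 7 had 0 reads in both constriction libraries (38.9%) and 9 were called (50.0%). Of all listed genes 94.5% were lower, 89.6% had 0 such reads and 91.5% were called. In MDA-MB-231 7 of 13 were lower (53.8%) and in LM2 1 of 2, where 33.3% and 46.4% of all listed genes were. EdgeR called 0 in these lines, where 0.262% and 0.0% of all listed genes were called. An unadjusted edgeR p under 0.05 was reached by 12 and 1, where 94.0% and 41.2% of all listed genes reached it. DESeq2 called 1 and 0, where 2.36% and 0.0% were called, and limma called 0, where 0.0% were in each line. No test of the difference between the 2 sets of pseudogenes was made.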

How the data were processed

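The series holds 12 poly(A)-selected libraries, 2 per group in 3 cell lines. The deposited read counts per gene were made by the authors with fastp, HISAT2 2.0.5 on GRCh38 and featureCounts 1.5.0-p3. The deposited normalised counts (signal) are those counts over 1 size factor per library, set by the authors for each line with DESeq2 1.20.0. The group means were not used. The authors computed FPKM from counts and gene lengths. The deposited log2 fold changes and p-values are those of the authors' comparison: the fold changes were not used, and the p-values served only to recover the number of genes adjusted over (19236, 23976 and 30209). The deposited lists of enriched GO terms were not used.

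Members and lists were chosen with earlier results of these data known. The rule for named members was as follows: every LM2 member, every member listed in 2 or 3 tables, the 8 most abundant higher and the 8 most abundant lower MDA-MB-231 members, every higher MCF-10A member with the 10 highest controls among those with 0 reads after transit and the 8 most abundant other lower ones, the most abundant member of each parent class, and AC078817.1, whose parent was listed. AC078817.1, the further PFN1 copies, EEF1A1P11, AC010240.2, UQCRBP1, SHMT1P1 and the surrounding genes with the members they overlap were chosen after their values were seen. The rule also names 2 members that are not reported here. Each cell line was fitted alone with edgeR 4.0.16 (R 4.3.3), two-sided, scaling the counts by the deposited size factors, with genes outside the table taken at a p-value of 1. Fold changes used log2(mean normalised count + 1), a scale that understates the change of low genes, with an SE from the spread of 2 libraries. A group with 0 reads was replaced by 3 reads per library, and where a group held 1 to 3 reads per library at most an exact Clopper-Pearson 95% interval was given, which covers counting error only. Closest coding transcripts were found with blastn in GENCODE release 29.

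The study lists less total RNA for the constriction than for the control samples of MDA-MB-231 and LM2. In MCF-10A it lists more for replicate 1 than for replicate 2 in both groups. Any effect of the RNA amount on the counts was not tested. The replicate numbers were taken to pair the libraries, because the study's cell numbers are given per experiment, with controls beside transited cells. The correlation of deviations between same-numbered libraries was -0.0427, 0.0827 and -0.0317 over all listed genes, and -0.11, 0.159 and 0.048 over genes whose normalised counts averaged 10 or more. These low correlations give the pairing little support, so the blocked p-values rest on an assumed pairing. The blocked fit leaves 1 residual degree of freedom. The title of one LM2 constriction library says 2 where its description says 1, and it was taken as 2. The study describes the replicates as biological, from repeated experiments. Size factors ran from 0.788 to 1.27. Alternatives were the replicate block, TMM factors of the listed genes, DESeq2 1.42.0, limma 3.58.1 on log2(normalised count + 1), a minimum mean normalised count of 10, pseudocounts of 0.5 and 10, leaving out members described as ribosomal, and leaving out each library.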

Additional observations from a re-analysis of the deposited data

Results flagged for a closer look

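Members listed in 2 tables with opposite directions, each library of one group on the same side of both libraries of the other, were ACTG1P10 and AL583832.1. ACTG1P10, a gamma-actin copy, had a log2 fold change of -3.13 in MCF-10A and 1.64 in MDA-MB-231. AL583832.1, a glycogenin copy, had -3.45 in MCF-10A and 2.02 in MDA-MB-231. The difference between the lines was not tested, and each line was normalised on its own. In MCF-10A neither had more than 19 reads in a library, and the exons of ACTG1P10 overlap those of KANTR on the opposite strand.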

How the results depend on the processing

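The number of MCF-10A members called was 115, where 91.5% of the listed genes were called. With a minimum mean normalised count of 10 it was 26, where 74.0% were called. The members lower after transit then fell from 127 to 35, while all 30 higher members remained. Those with 0 reads in both constriction libraries fell from 103 to 22. In MDA-MB-231 the 0 called members became 10 with the replicate block, 6 with TMM factors, 2 with DESeq2 and 1 with the minimum count, where 22.6%, 3.94%, 2.36% and 0.772% of the listed genes were called, and the 2 members with 0 reads became 0 with the minimum count. In LM2 the 0 called members became 2 with the replicate block, where 28.9% of the listed genes were called. Leaving out a library gave 0 to 31 called members in MCF-10A, 127 to 139 lower and 103 to 116 with 0 reads. In MDA-MB-231 the ranges were 16 to 17 lower and 2 to 6 with 0 reads (6 without constriction replicate 1). In LM2 the number with 0 reads was 0 to 1. Leaving out a library leaves 1 residual degree of freedom, and the cause of other shifts was not tested. TMM factors moved the median log2 fold change of all listed genes by -0.49, -0.41 and 0.12, and turned the direction of no named member.

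Of the named members, 13 changed direction, all on leaving out 1 library. The log2 fold changes below were the lowest on leaving out MCF-10A constriction replicate 1 and the highest on leaving out constriction replicate 2. They ran from -1.79 to 7.5 for AC004898.1, from -0.16 to 6.59 for TERF1P2, from -0.48 to 8.75 for AC068631.3, from -1.42 to 7.88 for AC245100.2, from -0.57 to 8.78 for AC008267.1, from -2.11 to 6.39 for ARMC10P1, from -0.84 to 8.43 for CR391992.1, from -0.38 to 4.97 for RAC1P2, from -0.5 to 4.82 for CDC20P1, from -0.15 to 4.25 for NUS1P1, from -1.91 to 6.29 for HSP90B2P and from -1.53 to 5.08 for AL513175.2. RBMS2P1 ran from -1.79 without MDA-MB-231 constriction replicate 2 to 2.93 without constriction replicate 1. WBP1LP1, AL035404.1, HMGB3P7, AP002001.2 and AL132838.2 had no read left without constriction replicate 1, and EEF1A1P4 in LM2 likewise, so they could not be fitted.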
